A study of Mus musculus with 13 samples.

Results

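A set of 9 structural genes with products in the neuronal axon was followed here in bulk RNA from the mouse arcuate nucleus. Such RNA comes from all cells of the tissue, not from neurons alone. The members are the neurofilament genes Nefl, Nefm, Nefh and Ina, the spectrin genes Sptan1 and Sptbn1, and the ankyrin genes Ank1, Ank2 and Ank3. They were taken by gene symbol, 9 of 55421 identifiers, and all 9 were among the 23622 genes with enough reads to be tested. The set was chosen by measured values: Sptan1 was lower in the knockout mice and Nefh was lower on the high-fat diet in these same libraries. Differences of the 9 genes between genotypes or diets are therefore given as a description: no p-value is printed for them, and counts of calls stand beside the share of all genes but support nothing about the set.

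Neurofilaments are intermediate filaments of neurons, built from the light, medium and heavy chains (Nefl, Nefm, Nefh) and alpha-internexin (Ina), and they fill axons and help to set their calibre. Spectrins are long rods of alpha and beta chains (Sptan1 and Sptbn1) that cross-link short actin filaments into a periodic lattice under the axonal membrane. Ankyrins (Ank1, Ank2, Ank3) tie that lattice to channels and adhesion proteins. Ankyrin-G, the product of Ank3, organizes the axon initial segment, where action potentials start.

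The data are RNA-seq libraries from 13 mice, all 20 weeks old. The arcuate nucleus is the hypothalamic cell group that holds the feeding neurons marked by AgRP and POMC. In the knockouts (KO) a Cre recombinase driven by Agrp was combined with a floxed Klf4 gene, which encodes a zinc finger transcription factor, and the controls were littermates. Mice stayed on chow or received a high-fat diet (HFD) for the last 10 weeks. There were 3 controls on chow, 3 KO mice on chow, 4 controls on HFD and 3 KO mice on HFD. The labels and the deposited table do not say if the controls carried Cre, nor which Agrp-Cre line it was. AgRP neurons are a minority of the cells of this tissue, and in such bulk RNA fewer cells of a type and less RNA per cell cannot be told apart.

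The libraries held 34.7 to 68.2 M counts, and replicates are named by group and number. Klf4 itself lay between 1.58 and 5.95 counts per M counts of the library (CPM) and did not separate the genotypes. Hsd11b2, a steroid dehydrogenase gene, lay between 60.7 and 68.5 CPM in the 6 KO libraries and between 0.348 and 1.55 CPM in 6 of the 7 control libraries. The library labelled Control_HFD replicate 3 held 63.6 CPM of it, at the KO level. The library labelled Control_Chow replicate 3 has a female letter in its title, but had male levels of Xist (0.674 CPM) and of Y-linked genes (180.1 CPM). By these reads all 3 chow control libraries were male, while each of the other groups held libraries of both sexes. Results that turn on these libraries are also given without them. All 8 arcuate marker genes were read in every group, and their summed level was between 622 and 677 CPM in the 3 control chow libraries and between 1052 and 2951 CPM in the other 10.

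The sequences of a neurofilament and of the start regions of a spectrin and a neurofilament gene help to place the genes. Nefh is set apart from its partners by a long tail of lysine-serine-proline repeats, whose serines are phosphorylated in axons. The Nefh-201 transcript (GRCm38, minus strand, exon 4 of 4) holds 51 such codon triplets among 1090 codons, Nefm-201 holds 4 among 848, and Nefl-201 and Ina-201 hold 0. A 120-base stretch of the Nefh coding sequence, chr11:4940938-4941057, shows the repeat, with its 7 lysine-serine-proline codon triplets in capitals.
Nefh tail: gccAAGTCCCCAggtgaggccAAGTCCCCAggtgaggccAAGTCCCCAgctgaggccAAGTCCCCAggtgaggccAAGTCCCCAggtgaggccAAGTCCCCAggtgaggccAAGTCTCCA
KLF proteins bind CACCC boxes. Start regions of Sptan1 (chr2:29965310-29965559, plus strand) and Ina (chr19:47014431-47014680, plus strand) are printed as the 250 bases before the start in the RefSeq table for GRCm38.p6, with CACCC, or its reverse complement GGGTG, in capitals.
Sptan1: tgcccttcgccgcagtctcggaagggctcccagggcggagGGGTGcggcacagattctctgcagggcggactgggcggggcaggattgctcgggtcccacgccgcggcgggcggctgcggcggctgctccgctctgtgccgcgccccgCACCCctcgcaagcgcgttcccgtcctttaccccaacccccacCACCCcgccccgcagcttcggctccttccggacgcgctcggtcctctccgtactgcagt
Ina: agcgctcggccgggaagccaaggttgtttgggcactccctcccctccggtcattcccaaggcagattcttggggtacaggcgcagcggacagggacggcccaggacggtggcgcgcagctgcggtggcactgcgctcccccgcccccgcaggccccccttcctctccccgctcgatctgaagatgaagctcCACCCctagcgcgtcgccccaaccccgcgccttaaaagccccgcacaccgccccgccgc
The Sptan1 window held 3 boxes and the Ina window 1. Of 32851 mouse start regions of the same length, 52.0% held at least 1 box and 6.92% held at least 3, so a match in these letters is common. Sptan1, Sptbn1, Ank2 and Ina, 4 of the 9 genes, matched the table.

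Per kilobase of gene model, the neurofilament genes led the set. The deposited RPKM (reads per kilobase per M reads) averaged 142 ± 34.5 (SD, n = 13 libraries) for Nefl, 69.4 ± 10.2 for Ina and 50.5 ± 13.8 for Nefm. Sptan1 averaged 25.6 ± 3.85 RPKM and Sptbn1 20.1 ± 2.31 RPKM. Nefh, at 17.6 ± 2.99 RPKM, was the lowest neurofilament gene. The ankyrin genes were lower still, with Ank2 at 12.5 ± 1.36 RPKM, Ank3 at 4.76 ± 0.799 RPKM and Ank1 at 0.594 ± 0.183 RPKM. This order was the same in all 13 libraries except between Sptan1 and Sptbn1, in order in 12, and between Sptbn1 and Nefh, in order in 11. Ranges over libraries of neighbours in the order overlapped, apart from Ank2 against Ank3 and Ank3 against Ank1. The deposited lengths join all exons of all transcripts (3380 bases for Nefl, 35360 for Ank2), so RPKM understates genes whose long exons are little used.

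**Figure D1:**
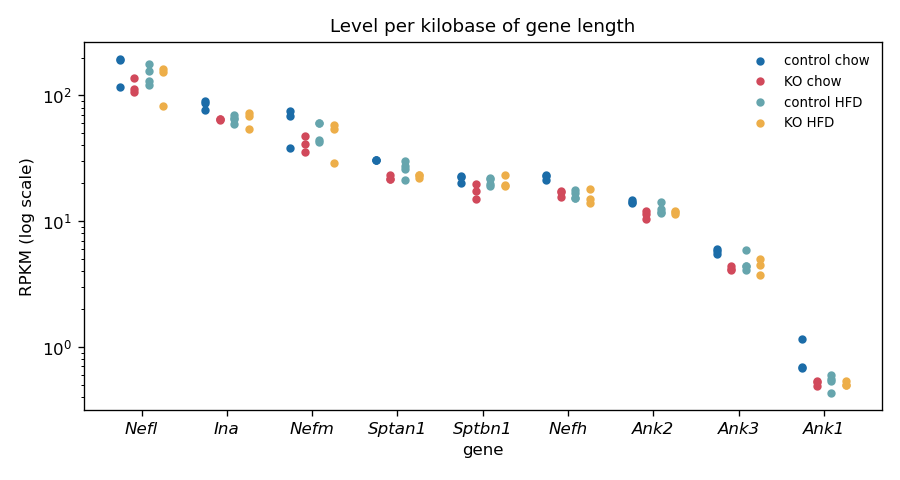
Level of each of the 9 genes per kilobase of gene model (RPKM, log axis) in the 13 libraries, coloured by group, with genes ordered by their median. Nefl is the highest at a mean of 142 RPKM and Ank1 the lowest at 0.594 RPKM.

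The mean proportions of the 4 neurofilament genes were close between groups, although single libraries differed. Of their summed RPKM, Nefl made up 49.5 ± 2.80% in controls on chow (n = 3), 49.1 ± 2.37% in KO on chow (n = 3), 52.3 ± 1.93% in controls on HFD (n = 4) and 50.3 ± 3.93% in KO on HFD (n = 3). Nefh made up 6.86 ± 1.33%, 6.94 ± 0.425%, 5.85 ± 0.740% and 6.23 ± 1.36% in the same order, and over the 13 libraries it ranged from 5.07 to 8.39%. Ina ranged from 21.5 to 30.3% of the sum, and the CPM ratio of Nefl to Nefh from 4.67 to 8.81. The CPM ratio of Nefl to Nefm was 1.66 ± 0.0941 over the 13 libraries (SD), although Nefl alone ranged from 278 to 657 CPM. Nefl (chr14:68083863-68089095, plus strand) and Nefm (chr14:68082590-68124846, minus strand) have gene models that share 1108 exonic bases on opposite strands. The counting's strand setting is not given in these sources, so reads in that overlap cannot be told apart.

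Nefl, the light chain on which the other chains assemble, varied strongly between mice. On chow it stood at 657, 395 and 644 CPM in control replicates 1, 2 and 3 and at 469, 378 and 359 CPM in KO replicates 1, 2 and 3. On HFD it stood at 606, 411, 439.9 and 533 CPM in the 4 controls and at 549, 519.7 and 278 CPM in the 3 KO libraries. The highest values were those of control chow replicates 1 and 3, while control chow replicate 2 lay among the KO chow libraries. Nefl differed between KO and control by a log2 fold change of -0.48 ± 0.29 (SE) on chow and of -0.13 ± 0.27 on HFD. The chow value was -0.22 without the library labelled Control_Chow replicate 3 and -0.24 without both doubted libraries, and the HFD value turned to 0.12 without KO_HFD replicate 3. HFD differed from chow by -0.18 ± 0.27 (log2) in controls, and that difference became 0.07 without the libraries labelled Control_HFD replicate 3 and Control_Chow replicate 3.

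Nefm, the medium chain, followed Nefl library by library. It ranged from 219.9 to 438 CPM in controls on chow, 206 to 275 CPM in KO on chow, 245 to 351 CPM in controls on HFD and 169 to 337 CPM in KO on HFD. All groups overlapped. Its KO-minus-control log2 difference was -0.55 ± 0.32 on chow and -0.12 ± 0.30 on HFD. On chow it was -0.31 without the library labelled Control_Chow replicate 3 and -0.35 without both doubted libraries, and on HFD it turned to 0.13 without KO_HFD replicate 3. The HFD-minus-chow log2 difference in controls was -0.23 ± 0.30, and 0.03 without the 2 doubted libraries.

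Nefh (chr11:4938754-4948064, minus strand), the heavy chain, was much steadier within groups. Its values on chow were 90.7, 84.6 and 93.0 CPM in the controls and 69.3, 68.7 and 62.2 CPM in the KO libraries. Its values on HFD were 70.2, 61.2, 67.1 and 60.5 CPM in the controls and 71.5, 60.2 and 55.7 CPM in the KO libraries. The 3 chow controls stood above all 10 other libraries, and those 10 overlapped each other whatever their genotype or diet. The log2 difference from controls on chow was -0.47 ± 0.10 in controls on HFD and -0.41 ± 0.11 in KO on chow. HFD against chow within KO gave -0.09 ± 0.10, and KO against control within HFD gave -0.04 ± 0.10. Without the 2 doubted libraries the difference of HFD from chow in controls was -0.39. KO against control was then -0.28 on chow and 0.01 on HFD.

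Ina (chr19:47014698-47025327, plus strand), alpha-internexin, which joins the other chains in filaments of the central nervous system, repeated that arrangement. Controls on chow held 283, 248 and 293 CPM and KO mice on chow 207, 209 and 209.5 CPM. Controls on HFD held 228, 193, 213 and 211 CPM and KO mice on HFD 234, 220.4 and 176 CPM. Every chow control exceeded every other library. The log2 difference was -0.41 ± 0.12 for KO against control on chow and -0.39 ± 0.11 for HFD against chow in controls, against -0.01 ± 0.11 for KO against control on HFD and 0.01 for HFD against chow in KO. Without the 2 doubted libraries KO against control was -0.30 on chow and 0.01 on HFD, and HFD against chow in controls was -0.30. The Ina model shares 456 exonic bases with Nt5c2 on the opposite strand.

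**Figure D2:**
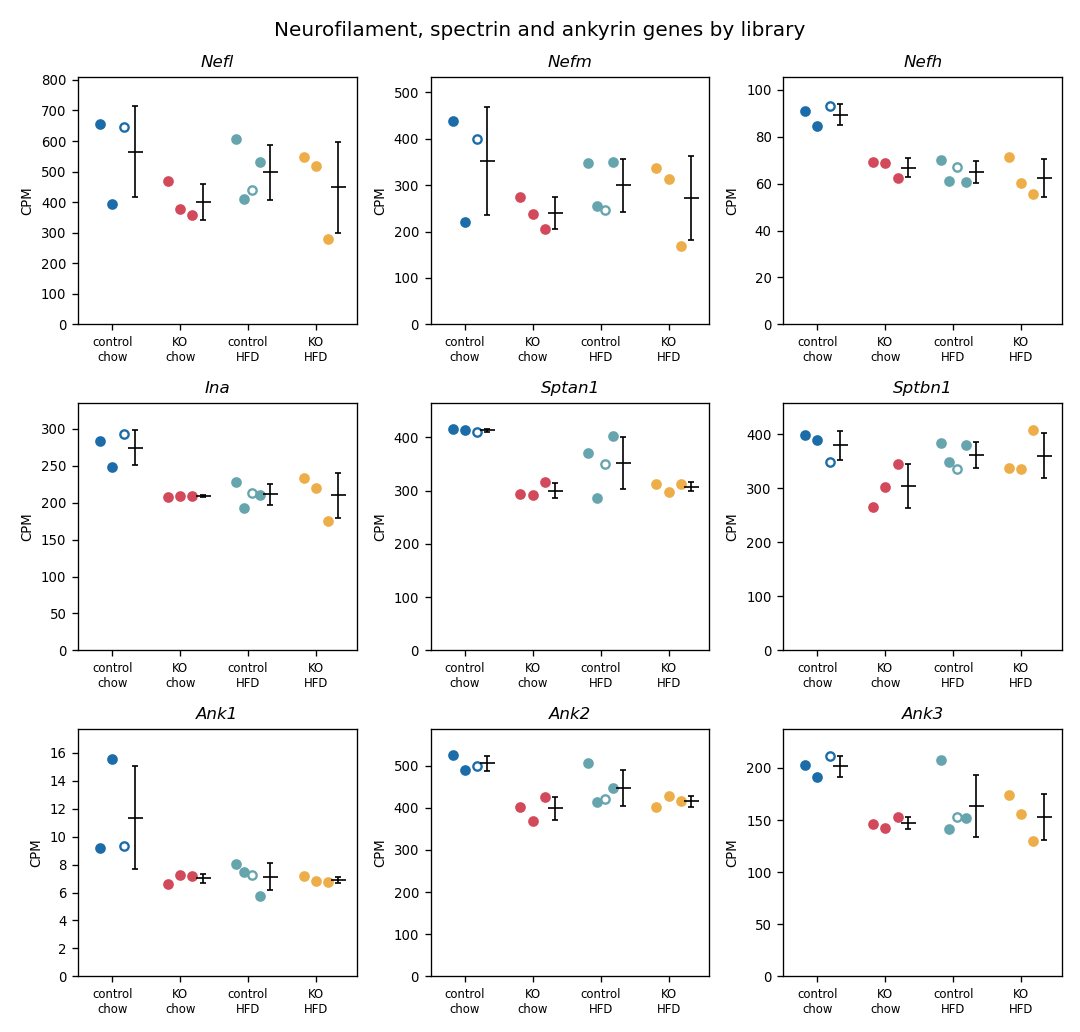
CPM of each gene in each of the 13 libraries by group, with the mean ± SD of the group (black bar) and open circles for the 2 libraries whose reads go against their labels. For Nefh, Ina, Sptan1 and Ank1 the 3 control chow libraries lie above all 10 others, while Nefl and Nefm spread widely within groups.

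Sptan1 (chr2:29965560-30031451, plus strand) encodes alpha-II spectrin, the alpha chain shared by the spectrin tetramers of neurons. The chow controls read 415, 413 and 410.2 CPM and the chow KO libraries 293, 291 and 315 CPM. The HFD controls read 370.2, 286, 350.1 and 402 CPM and the HFD KO libraries 312, 297 and 312 CPM. Chow controls were close together and above every other library, the 6 KO libraries were between 291 and 315 CPM, and the HFD controls ranged from below the KO libraries to just below the chow controls. The KO-minus-control difference was log2 -0.50 ± 0.11 on chow, -0.21 ± 0.10 on HFD and -0.36 ± 0.08 as the mean of both diets. Of the 9 genes, Sptan1 kept a lower value in KO on both diets under every alternative processing, as did Ank2. HFD against chow was -0.25 ± 0.10 in controls and 0.04 in KO. The value for KO on HFD was -0.13 without Control_HFD replicate 4, and that for HFD in controls was -0.14 without Control_HFD replicate 2.

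Sptbn1 (chr11:30099395-30268175, minus strand) encodes beta-II spectrin, the partner of Sptan1 in the axonal lattice. It read 399, 389.8 and 349 CPM in chow controls and 265, 302 and 345 CPM in chow KO libraries. HFD controls had 383, 348, 335 and 379.6 CPM and HFD KO libraries 338, 335 and 409 CPM. The chow KO libraries were below the chow controls by a narrow margin, and the highest library of all was KO_HFD replicate 3. The log2 difference between KO and control was -0.35 ± 0.11 on chow, -0.02 ± 0.10 on HFD, and -0.49 on chow without the doubted libraries. In KO mice HFD gave a higher value than chow by log2 0.25 ± 0.10, and by 0.16 without KO_Chow replicate 1. The CPM ratio of Sptan1 to Sptbn1 was 1.09 ± 0.0721 in controls on chow (n = 3), 0.995 ± 0.0993 in KO on chow (n = 3), 0.973 ± 0.109 in controls on HFD (n = 4) and 0.858 ± 0.0847 in KO on HFD (n = 3).

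Ank1 (chr8:22974844-23150497, plus strand), the ankyrin first known from red blood cells and also made by some neurons, was rare. Libraries of chow controls held 9.16, 15.6 and 9.35 CPM and those of chow KO mice 6.63, 7.23 and 7.17 CPM. HFD controls held 8.05, 7.49, 7.26 and 5.77 CPM and HFD KO mice 7.18, 6.79 and 6.77 CPM. The 3 chow controls were again the highest libraries, and control chow replicate 2 stood far above the rest. The log2 difference was -0.65 ± 0.19 for KO against control on chow and -0.65 ± 0.17 for HFD against chow in controls. Without both doubted libraries these were -0.73 and -0.755, and without control chow replicate 2 they were -0.41 and -0.40. That library also had the highest sum of mammillary nucleus markers, 78.6 CPM against at most 30.9 CPM elsewhere, and its part in the Ank1 value was not tested. The sum of red blood cell markers was 104 CPM in it, within the range of 72.9 to 306 CPM over the other libraries. The Ank1 model shares 862 exonic bases with the antisense gene Gm15816.

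Ank2 (chr3:126921612-127499350, minus strand), ankyrin-B, which spreads along the axon shaft, was the most read member by CPM after Nefl. It ranged from 489.5 to 525 CPM in controls on chow, 369 to 425 CPM in KO on chow, 412 to 506 CPM in controls on HFD and 403 to 428 CPM in KO on HFD. Chow controls were above all other libraries apart from Control_HFD replicate 1. The difference of KO from control was log2 -0.35 ± 0.10 on chow and -0.10 ± 0.09 on HFD, and that of HFD from chow in controls was -0.19 ± 0.09. Without Control_HFD replicate 1 the difference of KO from control on HFD was -0.03. With each library's trend of level on gene length taken out, the chow difference was -0.24.

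Ank3 (chr10:69398773-70027438, plus strand), ankyrin-G, showed the same order with more spread. It ranged from 191 to 211 CPM in controls on chow, 142 to 153 CPM in KO on chow, 141 to 207 CPM in controls on HFD and 129 to 174 CPM in KO on HFD. Control_HFD replicate 1, at 207 CPM, was the only other library that reached the chow controls. KO differed from control by log2 -0.44 ± 0.15 on chow and by -0.08 ± 0.14 on HFD, and HFD from chow in controls by -0.30 ± 0.14. The last value was -0.18 without the library labelled Control_Chow replicate 3, and also without both doubted libraries, and -0.46 without Control_HFD replicate 1. KO against control on chow was -0.32 without both doubted libraries. Of the summed RPKM of the ankyrin genes, Ank3 made up 27.7 ± 1.17% in chow controls (n = 3) and 26.4 ± 0.628% in chow KO mice (n = 3).

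Across the set, all 9 genes had a lower fitted value in KO than in control on chow, as did 50.4% of all genes tested, and their median log2 difference was -0.44, where the median of all genes was 0.00. On HFD all 9 fitted values were below 0 too (51% of all genes), with a median of -0.08, but 7 of them changed sign under at least 1 alternative, the exceptions being Sptan1 and Ank2. In controls all 9 were lower on HFD (49% of all genes), with a median of -0.25. In KO mice 2 were lower on HFD (50.3% of all genes) and 7 higher, with a median of 0.06. These comparisons share libraries: the chow controls are the reference of both the genotype difference on chow and the diet difference in controls. No gene passed a Benjamini-Hochberg adjusted p of 0.05 in edgeR's quasi-likelihood test in any of the 7 comparisons, so that 0 of 9 members and 0% of the 23622 genes were called, and limma-voom also called 0 of both. DESeq2 called 4 members lower in KO on chow (Nefh, Sptan1, Ank1 and Ank2), where it called 0.813% of all genes lower, 1 in KO as the mean of both diets (0.106%) and 1 on HFD in controls (0.114%). The last 2 were Sptan1 and Nefh, the genes and differences for which the set was chosen, so these calls restate the choice. The 4 calls in KO on chow include Sptan1 and rest on the same chow controls, so they support nothing about the set either. In the other comparisons it called 0 members, and of all genes 0% for KO against control on HFD, 0.0254% for the genotype by diet interaction, 0.0339% for HFD in KO and 0.0593% for HFD as the mean of both genotypes.

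Counts at an unadjusted p and of groups that do not overlap come from the same differences that chose the set, and nothing is read from them. At an unadjusted edgeR p under 0.05, 7 members were lower in KO on chow, where 6.07% of all genes were. For the other comparisons the counts were 7 lower in KO as the mean of both diets (4.68% of genes), 5 lower on HFD in controls (3.91%), 3 lower on HFD as the mean of both genotypes (3.01%), 1 higher on HFD in KO (Sptbn1; 1.98%), and 0 for KO against control on HFD (1.66% in either direction). KO and control libraries on chow did not overlap for 7 members, all lower in KO, as for 8.81% of all genes. The exceptions were Nefl and Nefm, in which control chow replicate 2 was low. Control libraries on HFD and chow did not overlap for 4 members, lower on HFD (4.87% of genes). For KO against control on HFD, and for HFD against chow in KO, 0 members had groups that did not overlap in the lower direction (1.61% and 4.97% of genes).

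**Figure D3:**
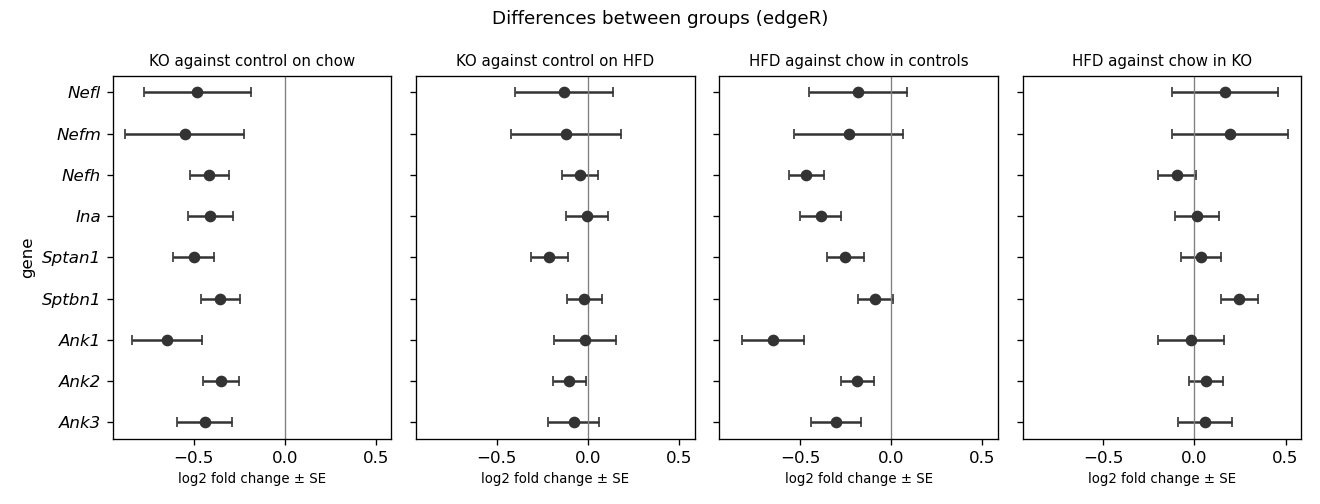
Log2 fold change (point) with its standard error (bar) of each gene from edgeR, for KO against control on either diet and for HFD against chow in either genotype. All 9 points lie below 0 for KO against control on chow and for HFD against chow in controls, while the other panels range from -0.21 (Sptan1, KO against control on HFD) to 0.25 (Sptbn1, HFD in KO).

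Genes with all chow controls on top are counted as a description only, because the chow controls enter the differences that chose the set. For Nefh, Ina, Sptan1 and Ank1 all 3 chow controls were above all 10 other libraries, a count made after the values had been seen, and the same held for 1.9% of all genes tested (449 of 23622). The same 4 members did so with TMM-scaled CPM (1.99% of genes), with the length trend taken out (1.69%) and without the 2 doubted libraries (4.25%). The difference between the genotype effects on the 2 diets, the genotype by diet interaction, contains the chow controls, whose values also enter the differences that chose the set. It is therefore not independent of that choice and is given as a description. Its log2 value was above 0 for all 9 genes, with a median of 0.36, and the median of all genes was -0.01. The values were 0.37 ± 0.14 for Nefh, 0.40 ± 0.17 for Ina, 0.29 ± 0.15 for Sptan1, 0.33 ± 0.14 for Sptbn1 and 0.63 ± 0.25 for Ank1. Ank2 had 0.25 ± 0.13, Ank3 0.36 ± 0.20, Nefl 0.35 ± 0.40 and Nefm 0.43 ± 0.44. Without both doubted libraries Nefl had 0.10, Nefm 0.17 and Ank3 0.24. Ank1 had 0.38 without Control_Chow replicate 2, Sptan1 0.18 without Control_HFD replicate 2 and Ank2 0.16 with the length trend taken out. Nefh, Ina, Sptbn1 and Ank1 had an unadjusted p under 0.05, as did 2.61% of all genes in that direction. edgeR and voom each called 0 members and 0% of all genes, and DESeq2 called 0 members and 0.0254% of all genes. These counts are part of the description, and no difference of the genotype effect between the 2 diets is claimed for any of the 9.

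The chow controls did not overlap the other 10 libraries in the arcuate marker sum (622 to 677 against 1052 to 2951 CPM), and they overlapped them in every other marker sum and in the length slope. The sum of 8 pan-neuronal markers was between 3512 and 3900 CPM in chow controls and between 2505 and 3710 CPM in the others. Among the 8 arcuate markers, Th and Ghrh were below all other libraries in the chow controls and the other 6 overlapped. Pomc was the largest part of the arcuate sum, at a mean of 1030 CPM over all libraries, and Cartpt came next at 295 CPM. For Pomc the highest chow control had 376 CPM and the lowest other library 363 CPM. The sum of parvalbumin and fast-firing neuron markers was 75.6 to 94.6 CPM against 61.9 to 79.8 CPM. The slope of log2 CPM on log2 gene length was between 0.0082 and 0.0177 in chow controls, between -0.0262 and 0.0047 in KO on chow and between -0.0129 and 0.0110 on HFD. The oligodendrocyte sum overlapped, at 2629 to 4445 CPM against 1973 to 8634 CPM. The part of these measures in the values of the 9 genes was not tested. With the length trend taken out, KO against control on chow was -0.43 for Sptan1 and -0.27 for Sptbn1. With sex taken from the reads in place of the title's letter, KO against control on chow was -0.53 for Sptan1 and -0.35 for Nefh. For the other genes it was -0.34 (Nefl), -0.42 (Nefm), -0.37 (Ina), -0.40 (Sptbn1), -0.64 (Ank1), -0.34 (Ank2) and -0.36 (Ank3). HFD against chow in controls was in that fit -0.28 for Sptan1 and -0.41 for Nefh.

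**Figure D4:**
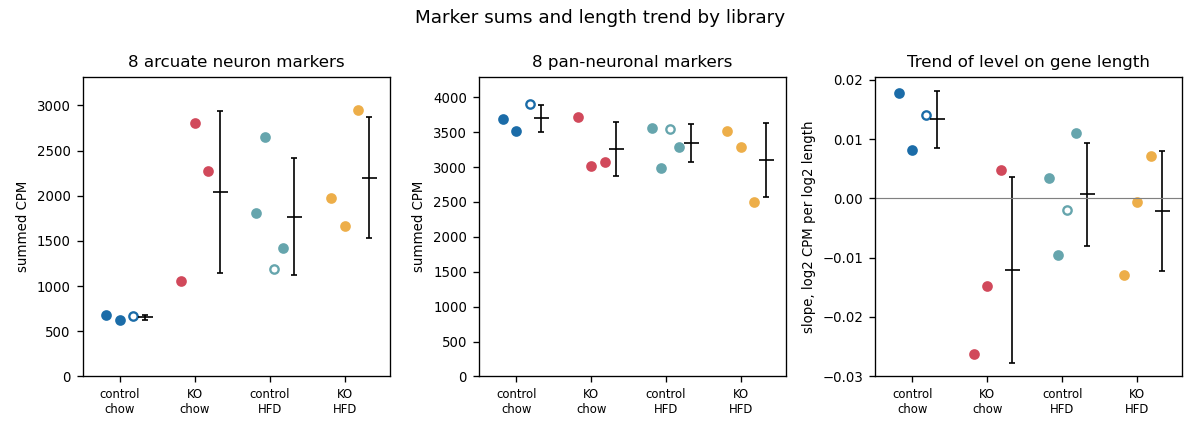
Summed CPM of 8 arcuate neuron markers, summed CPM of 8 pan-neuronal markers and the slope of log2 CPM on log2 gene length in each library, by group, with the mean ± SD (black bar) and open circles for the 2 libraries whose reads go against their labels. The arcuate sum is between 622 and 677 CPM in the chow controls and at least 1052 CPM in the others.

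Within groups, 5 of the 36 pairs of genes correlated from mouse to mouse, all of them among the neurofilament genes and Ank3. To leave out the group differences that chose the set, log2 CPM was centred on group means, and r was tested by exact two-sided permutation of libraries within groups (n = 13). Nefl and Nefm had r = 0.978 and rho = 0.868 (exact permutation p = 0.00174 and 0.00598, adjusted over 36 pairs 0.0208 for r). The gene models of Nefl and Nefm share 1108 exonic bases, and the part of this overlap in their r was not tested. Nefl and Ina had r = 0.936 and rho = 0.934 (exact permutation p = 0.000579 and 0.000386, adjusted p = 0.0104 for r). Their r without the 2 libraries farthest from the median was 0.955 and 0.851. Ina and Ank3 had r = 0.855 and rho = 0.907, with exact permutation p = 0.000579 and 0.000386 (adjusted p = 0.0104 for r), and r = 0.846 without the 2 farthest libraries.

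Nefh and Ina (r = 0.845, rho = 0.802) and Nefl and Ank3 (r = 0.776, rho = 0.912) also passed, each with an adjusted exact permutation p of 0.0361 for r, and their r was 0.709 and 0.719 without the 2 farthest libraries. By r the remaining 31 pairs did not pass, and by rho Nefl with Nefh, Nefm with Ina, Ina with Sptan1 and Ank2 with Ank3 also passed, each with an adjusted exact permutation p of 0.0463 for rho. The lattice partners Sptan1 and Sptbn1 had r = 0.427 and rho = 0.291, with an adjusted exact permutation p of 0.329 for r, and Ank1 and Ank2 had r = -0.087. The 5 passing pairs became 0 without KO_HFD replicate 3 and 13 with the length trend taken out. They also became 0 without the 2 doubted libraries, where fewer arrangements exist and r for Nefl and Nefm was 0.980.

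KO_HFD replicate 3 was the lowest of the 13 libraries for Nefl, Nefm, Nefh, Ina and Ank3, and the highest for Sptbn1. It also had the lowest pan-neuronal marker sum, 2505 CPM, but the highest arcuate neuron marker sum, 2951 CPM. Its pituitary (299 CPM) and tanycyte (349 CPM) marker sums were the highest too, and its ventromedial nucleus sum (74.4 CPM) was the lowest. The part of these sums in its values was not tested. Over the 13 group-centred libraries, Ina correlated with the pan-neuronal sum at r = 0.850 and rho = 0.813 (exact permutation p = 0.000772 and 0.00174, adjusted over 36 relations 0.0278 for r and 0.0626 for rho). Its r was 0.750 without the 2 farthest libraries. It was the only 1 of these 36 relations, chosen after the values had been seen, whose r passed. With the same sum Nefh had r = 0.868, Nefl 0.839 and Ank3 0.724 (adjusted exact permutation p = 0.0749 each), and Nefm 0.733 (0.102). For Sptan1, Sptbn1, Ank1 and Ank2 r with it ran from -0.555 (Sptbn1) to 0.408 (Ank2). The part of neuronal content in the correlated pairs was not tested. Sptbn1 had r = 0.850 with the length slope (adjusted exact permutation p = 0.0749) and 0.569 with the oligodendrocyte sum (0.419).

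**Figure D5:**
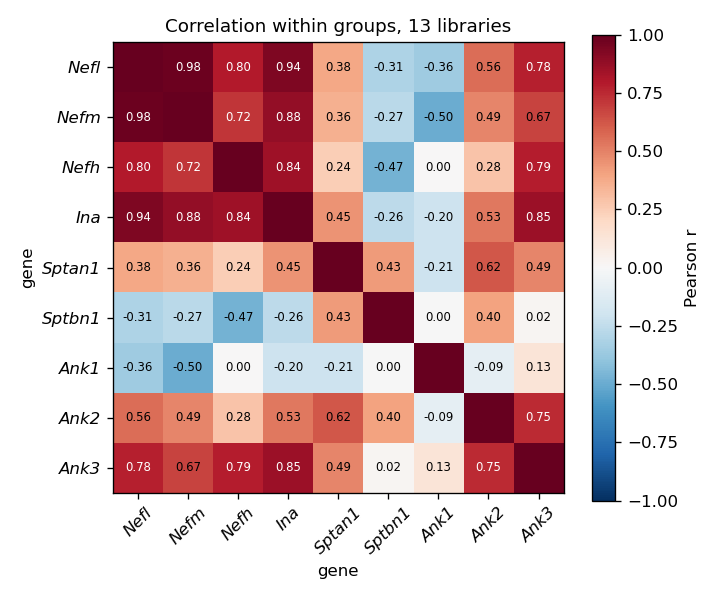
Pearson r between each pair of the 9 genes over 13 libraries after centring log2 CPM on group means. The neurofilament genes and Ank3 form a block of high positive r (0.978 for Nefl and Nefm), while Sptbn1 and Ank1 have r near or below 0 with the neurofilament genes.

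The genes whose within-group pattern was most like that of Sptan1 were Golga3 (r = 0.905), Vps8 (0.901), Slc39a3 (0.880), Itsn1 (0.880) and Lrrtm3 (0.877), among 11046 genes compared over the 13 libraries. For Nefh they were Tnik (r = 0.947), Atpaf1 (0.945), Entpd3 (0.925), Rnf112 (0.923) and Cadm3 (0.923). These r values are the highest of many and are given without a test.

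Partner genes were counted from 8 lists of 74 genes, all of them tested. These lists were chosen with earlier results of these data known, and the comparisons are those that chose the set. Their counts are therefore a description, and nothing about the set is read from them. edgeR called 0 of the 74 in any comparison, and at an unadjusted p under 0.05 it put 22 lower in KO on chow, where 6.07% of all genes were. DESeq2 called 5 of the 74 lower there, and 0.813% of all genes.

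The other spectrin genes were lower in KO on chow for 5 of 5 (50.4% of all genes), with a median log2 difference of -0.59. Of these 4 had an unadjusted edgeR p under 0.05 (6.07% of all genes) and DESeq2 called 2 (0.813%). Sptb, the beta-I chain, was 54.4 ± 7.62 CPM in chow controls (SD, n = 3), 35.6 ± 3.48 CPM in chow KO mice (n = 3), 44.5 ± 5.40 CPM in HFD controls (n = 4) and 40.3 ± 5.12 CPM in HFD KO mice (n = 3). Its log2 difference in KO as the mean of both diets was -0.37 ± 0.10 (edgeR adjusted p = 0.437), and that of Sptbn5, the beta-V chain, was -0.31 ± 0.12 (edgeR adjusted p = 0.491). Chow controls were above chow KO libraries without overlap for 4 of the 5 (8.81% of all genes).

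Channels of the axon initial segment and nodes, many of which bind ankyrin-G, were lower in KO on chow for 12 of 12 genes (50.4% of all genes). Their median log2 difference was -0.57. Of these 9 had an unadjusted p under 0.05 (6.07% of all genes) and DESeq2 called 2 (0.813%). Scn2a, a sodium channel gene, was 217 ± 22.9 CPM in chow controls (SD, n = 3), 146 ± 17.4 CPM in chow KO mice (n = 3), 175 ± 33.6 CPM in HFD controls (n = 4) and 154 ± 17.1 CPM in HFD KO mice (n = 3). Its difference in KO as the mean of both diets was log2 -0.37 ± 0.13 (edgeR adjusted p = 0.437). Scn1a, another sodium channel gene, had -0.38 ± 0.12 (edgeR adjusted p = 0.437). In controls 11 of the 12 were lower on HFD (49% of all genes), with a median of -0.29. In KO mice 10 of the 12 were higher, with a median of 0.12, where 50.3% of all genes were lower. On HFD the median of KO against control was -0.09. Averaged over genotypes, Scn3a differed between diets by -0.22 ± 0.09 and Scn4b by 0.67 ± 0.28, both with an edgeR adjusted p of 0.711.

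The remaining partner lists had smaller differences in KO on chow, where 50.4% of all genes were lower. Axonal microtubule genes were lower for 8 of 11 (median log2 -0.13), and on HFD in controls for 11 of 11 (median -0.10, 49% of all genes lower). Map2, a dendritic microtubule-associated protein gene, had -0.29 ± 0.10 in KO as the mean of both diets (edgeR adjusted p = 0.437), and Macf1, a cross-linker of microtubules and actin, had -0.14 ± 0.05 (edgeR adjusted p = 0.469). Genes of neurofilament transport and modification were lower in KO on chow for 9 of 11 (median -0.09), with Dync1h1, the dynein heavy chain, at -0.17 ± 0.06 as the mean of both diets (edgeR adjusted p = 0.452).

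Ankyrin-bound adhesion and scaffold genes were lower in KO on chow for 7 of 10 (median -0.12), where 50.4% of all genes were lower. L1cam, a cell adhesion molecule that binds ankyrins, had -0.17 ± 0.07 as the mean of both diets (edgeR adjusted p = 0.495). Actin lattice genes were lower for 7 of 12 (median -0.08), and Tmod1, which caps actin filaments, had 0.37 ± 0.14 as the mean of both diets (edgeR adjusted p = 0.459). Genes of spectrin-cutting proteases and their regulators were higher for 3 of 5 (median 0.04). None of these genes passed the adjusted threshold in edgeR.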

How the data were processed

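Per the labels' protocols, total RNA was made into libraries with Takara's SMART-Seq v4 kit. The submitters' processing notes list STAR, STAR-Fusion, Subread, FastQC, edgeR and mm10, with no versions. Annotation release, strand setting and read filters are not given in these sources. The authors deposited raw read counts and RPKM per gene. RPKM equals the count per kilobase and M counts, and only counts were tested. CPM is the count over the library total. One count is 0.0147 to 0.0288 CPM. Groups come from the sample titles and replicate numbers follow their listing.

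Genes passing filterByExpr (23622) were fitted in edgeR 4.0.16 (R 4.3.3): TMM, robust quasi-likelihood test, 4 groups plus the sex letter over all 13 libraries, Benjamini-Hochberg adjustment at 0.05. The procedure was tested on simulated data. DESeq2 1.42.0, limma-voom (limma 3.58.1), other scalings, filters, sex terms and libraries left out were alternatives. Correlations used log2 CPM with a prior count of 2 and 5184 arrangements of libraries within groups (smallest p 0.00019). Coordinates are from GENCODE M21 (GRCm38), matched by identifier. The version differs for Sptan1 and Ank2. Sequences come from that genome and RefSeq.

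The 9 genes and all lists were chosen with earlier results of these data known. Named partner genes are up to 3 per list with the smallest p for the mean genotype or the mean diet comparison, some of which are not reported here, and the 5 most alike were taken among genes with a mean log2 CPM of at least 3. Libraries are single mice in the titles, some of which share a mouse number with another suffix.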

Additional observations from a re-analysis of the deposited data

How the results depend on the processing

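With edgeR 0 members were called in all 7 comparisons under each alternative scaling, filter, sex term, length correction and choice of libraries, and with voom too. DESeq2 called 4 in KO on chow, 1 in KO as the mean of both diets and 1 on HFD in controls, and the cause was not tested. The number of correlated pairs was 13 with the length trend taken out and 0 without the 2 doubted libraries. In the latter case fewer arrangements exist, and the smallest exact permutation p for r, 0.00463, gave an adjusted p of 0.0556. That 0 therefore does not show weaker correlation: r of Nefl and Nefm was 0.980 there. The number ranged from 0 (without KO_HFD replicate 3) to 9 (without KO_Chow replicate 3) when a library was left out. Sptan1 in KO on chow stayed between -0.54 and -0.43, and Nefh on HFD in controls between -0.53 and -0.36. Small values changed sign: Nefl on HFD in controls was 0.06 without the library labelled Control_Chow replicate 3, and Ina in KO on HFD changed sign in 8 of 24 alternatives. Nefl in KO on HFD was 0.12 without KO_HFD replicate 3. Fits on only the groups compared cannot be made for the means over both diets or genotypes and for the interaction. No paired analysis was possible because replicate numbers follow listing order, and the mouse numbers in the titles tie libraries of different groups in a single case. With 3 or 4 mice a group and 8 residual degrees of freedom, standard errors reach 0.44 (log2, the interaction of Nefm) and limit what can be seen.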

Other observations

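Of 8 intermediate filament genes outside the set, 5 were lower in KO on chow (50.4% of all genes), with a median log2 difference of -0.16. At an unadjusted edgeR p under 0.05, 0 of them were lower (6.07% of all genes). Prph, which encodes peripherin, a filament protein that can join neurofilaments, varied more than any neurofilament gene. It ranged from 13.7 to 41.5 CPM in controls on chow, from 4.75 to 31.9 CPM in KO on chow, from 3.19 to 30.1 CPM in controls on HFD and from 2.94 to 7.23 CPM in KO on HFD. The groups overlapped, apart from controls on chow against KO on HFD. The log2 difference of HFD from chow as the mean of both genotypes was -1.35 ± 0.78 (edgeR adjusted p = 0.727). Des, the desmin gene of muscle and vessel wall cells, was low throughout, from 0.554 to 1.58 CPM on chow and from 1.22 to 2.02 CPM on HFD, and differed between diets by log2 0.73 ± 0.23 (edgeR adjusted p = 0.711).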
